A study of Homo sapiens with 12 samples.

Results

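Keratins are the proteins of the intermediate filaments of epithelial cells, and the 55 keratin genes of the human genome were followed here through both experiments of the series. They were chosen by symbol alone, as KRT followed by a number and at most one of the letters A, B and C, with keratin-associated proteins and pseudogenes left out. All 55 were found among the 61757 gene identifiers of the overexpression table that carried a symbol and among the 62700 of the resistance table. RNA was sequenced from RT4, an established human bladder cancer cell line, in 12 libraries. In the overexpression experiment, 3 libraries came from RT4 carrying a plasmid that encodes ITGB4, an integrin beta subunit, with a Flag tag. They were set against 3 libraries from RT4 with the empty Flag vector, all grown in McCoy's 5A medium with 10% fetal bovine serum. In the resistance experiment, 3 libraries of a cisplatin-resistant RT4 line, labelled as treated with cisplatin, were set against 3 libraries of parental RT4 cells, labelled as treated with PBS, all in MEM with the same serum share. No dose or time is labelled, and resistance and the cisplatin treatment cannot be told apart. The resistant cells are 1 line, and it is not labelled whether the plasmid cells are a pool or a clone. The titles of the 3 plasmid and 3 vector libraries all name ITGB4, while another label field names ITGB5 for both libraries numbered 2 and ITGB6 for both numbered 3. The control columns of the resistance table are headed NC, and their assignment to the parental cells is an inference from the table they stand in; they are called a, b and c.

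Filaments are built from pairs of a type I chain and a type II chain, so an epithelial cell makes members of both families together. The type I genes lie in a cluster on chromosome 17 and the type II genes in a cluster on chromosome 12, with the type I gene KRT18 at the end of the type II cluster. Simple epithelia express KRT8 and KRT18 with KRT7 and KRT19, the basal layer of stratified epithelia expresses KRT5 with KRT14 or KRT15, and KRT6A, KRT6B, KRT16 and KRT17 are known for their induction in wounded skin. In the urothelium KRT5 marks basal cells, KRT13 basal and intermediate cells, and KRT20 the umbrella cells. The beta 4 integrin is tied to this network, because its cytoplasmic tail binds plectin, which holds keratin filaments at hemidesmosomes.

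The genes KRT75, KRT6B, KRT6C, KRT6A and KRT5 stand next to each other in that order at chr12:52424070-52520687 (GRCh38, GENCODE 29), all on the minus strand. KRT6A, KRT6B and KRT6C are so alike that short reads can fail to tell them apart. Over their 1692 coding bases, KRT6A was 97.5% identical to KRT6B and 97.9% to KRT6C, and KRT6B was 98.5% identical to KRT6C, whereas KRT6A shared 77.9% of aligned columns with KRT5 and 74.8% with KRT75. The stretch of 60 coding bases where KRT6A and KRT6B differ most is printed to show on what their separate counts rest. Capitals mark the 9 positions at which the 3 genes are not all the same. The windows lie at chr12:52491555-52491614, chr12:52450439-52450498 and chr12:52472099-52472158 of GRCh38, read 5′ to 3′ on the minus strand.
KRT6A: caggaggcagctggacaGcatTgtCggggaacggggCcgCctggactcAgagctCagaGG
KRT6B: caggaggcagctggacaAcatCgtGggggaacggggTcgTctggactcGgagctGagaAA
KRT6C: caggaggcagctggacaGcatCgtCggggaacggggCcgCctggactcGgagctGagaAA
In this window KRT6B differed from KRT6A at 9 positions and KRT6C at 5. Of all 100-base windows of the transcript with the longest coding sequence, 18.2% in KRT6A, 24.6% in KRT6B and 31.7% in KRT6C occurred unchanged in the transcript of another gene, and none did in KRT75. A single read from such a window can map to more than 1 place, and the overexpression table was counted without multiply mapped reads. Read pairs were counted, and a pair may reach outside such a window, so these are not shares of lost reads.

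The promoters of KRT75, KRT5 and KRT10 are printed because KRT75 was higher in both experiments, its neighbour KRT5 in the resistance experiment, and KRT10 was lower in the overexpression experiment. Each line is the RefSeq window of 300 bases (GRCh38.p14), 250 before to 50 after the RefSeq gene start, on the minus strand. They lie at chr12:52434322-52434621, chr12:52520345-52520644 and chr17:40822565-40822864. GENCODE 29 places the starts of these genes elsewhere, at 52434525, 52520687 and 40822595. By that annotation the KRT5 window lies wholly inside the gene. Capitals mark matches to a searched motif on either strand.
KRT75: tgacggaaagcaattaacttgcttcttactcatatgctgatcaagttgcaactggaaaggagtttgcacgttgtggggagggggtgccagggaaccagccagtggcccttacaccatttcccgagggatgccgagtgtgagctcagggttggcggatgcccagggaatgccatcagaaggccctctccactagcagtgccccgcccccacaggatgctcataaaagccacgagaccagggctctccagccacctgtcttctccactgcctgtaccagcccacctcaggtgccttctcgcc
KRT5: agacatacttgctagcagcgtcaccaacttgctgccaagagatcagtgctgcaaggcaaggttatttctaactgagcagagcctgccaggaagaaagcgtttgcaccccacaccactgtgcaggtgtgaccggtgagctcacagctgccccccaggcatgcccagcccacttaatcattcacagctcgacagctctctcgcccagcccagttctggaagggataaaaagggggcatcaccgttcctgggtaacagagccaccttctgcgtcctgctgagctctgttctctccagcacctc
KRT10: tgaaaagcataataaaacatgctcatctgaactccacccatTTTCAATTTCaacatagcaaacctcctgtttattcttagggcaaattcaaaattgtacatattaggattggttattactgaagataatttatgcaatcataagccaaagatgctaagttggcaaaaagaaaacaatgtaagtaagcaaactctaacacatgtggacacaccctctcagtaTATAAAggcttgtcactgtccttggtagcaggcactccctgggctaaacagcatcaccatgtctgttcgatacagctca
The motifs were the STAT-type TTCNNNGAA, the AP-1 site TGANTCA, the TATA box TATAAA and the interferon-type element made of GAAA, NN and GAAA in a row. KRT10 held TATAAA 29 bases before its start and, on the reverse strand, the interferon-type letters, which share no base with it. No match was found in the windows of KRT75 and KRT5, and windows at their GENCODE starts were not searched. CPM are counts scaled to library size. Of the keratins at a mean of 1 CPM or more in some group, only KRT5, KRT8, KRT10 and KRT75 had a window. KRT10 alone of these held TATAAA. The others at that level, KRT6A among them, were not searched. Among the 34 keratins with a RefSeq window, 21 held TATAAA, against 11.5% of all 35116 promoter windows. The STAT-type motif was held by 2, against 7.66%, and the AP-1 site by none, against 7.71%. Of the same 34, 3 held the interferon-type letters, against 3.57%.

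Library totals were 22701466 to 33352045 counts in the overexpression table and 31824582 to 38199946 in the resistance table. ITGB4 itself had 1379 to 1485 CPM in plasmid libraries, against 858 to 879 CPM in vector libraries, and 831 to 848 CPM in resistant libraries, against 598 to 602 CPM in parental libraries. The cells carried markers of the urothelium and of epithelia in every group: GATA3 was at 152.9 to 260.9 CPM, UPK1B at 26.7 to 149.0 CPM and CDH1 at 432 to 714 CPM. UPK1A stayed at or under 18 counts, and vimentin (VIM), the filament protein of mesenchymal cells, had 1 count in each of 2 vector libraries and none in the other 10 libraries. Of markers of other cell types, the 6 fibroblast genes summed to 24.4 to 26.0 CPM in plasmid libraries, against 48.1 to 52.3 CPM in vector libraries, and to 4.43 to 5.73 CPM in resistant libraries, against 11.5 to 12.02 CPM in parental libraries. These sums were nearly all the collagens COL3A1 and COL1A1; COL1A2, PDGFRB, DCN and LUM stayed at or under 4 counts in every library. The 6 leukocyte and 5 endothelial genes reached at most 1.12 and 2.56 CPM in sum, with KDR at 0 throughout. The part of these transcripts in the keratin results was not tested. Whether replicate libraries stem from separate cultures is not labelled. The p-values therefore reflect the scatter of these libraries alone, and that scatter may be technical.

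Of the 55 keratins, 16 reached a mean of 1 CPM in at least 1 group, 28 of the others had some counts, with at most 36 in a library, and 11 had no count in any of the 12 libraries. Those 11 were KRT12, KRT20, KRT23, KRT25, KRT26, KRT28, KRT33B, KRT37, KRT39, KRT40 and KRT82. KRT20, the umbrella cell keratin, was thus below the level that 3 counts over the group allow, which is 0.0383 CPM in plasmid cells, 0.0338 CPM in vector cells, 0.0272 CPM in resistant cells and 0.0286 CPM in parental cells. KRT2, KRT4, KRT81 and KRT86 had group means under 1 CPM but had enough counts for a test in 1 or both experiments, and the 24 others with counts reached at most 10 in a library. KRT6C had 17 counts in the plasmid libraries together, against 6 in the vector libraries, and 1 count in the resistant libraries together, against 6 in the parental libraries.

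**Figure D1:**
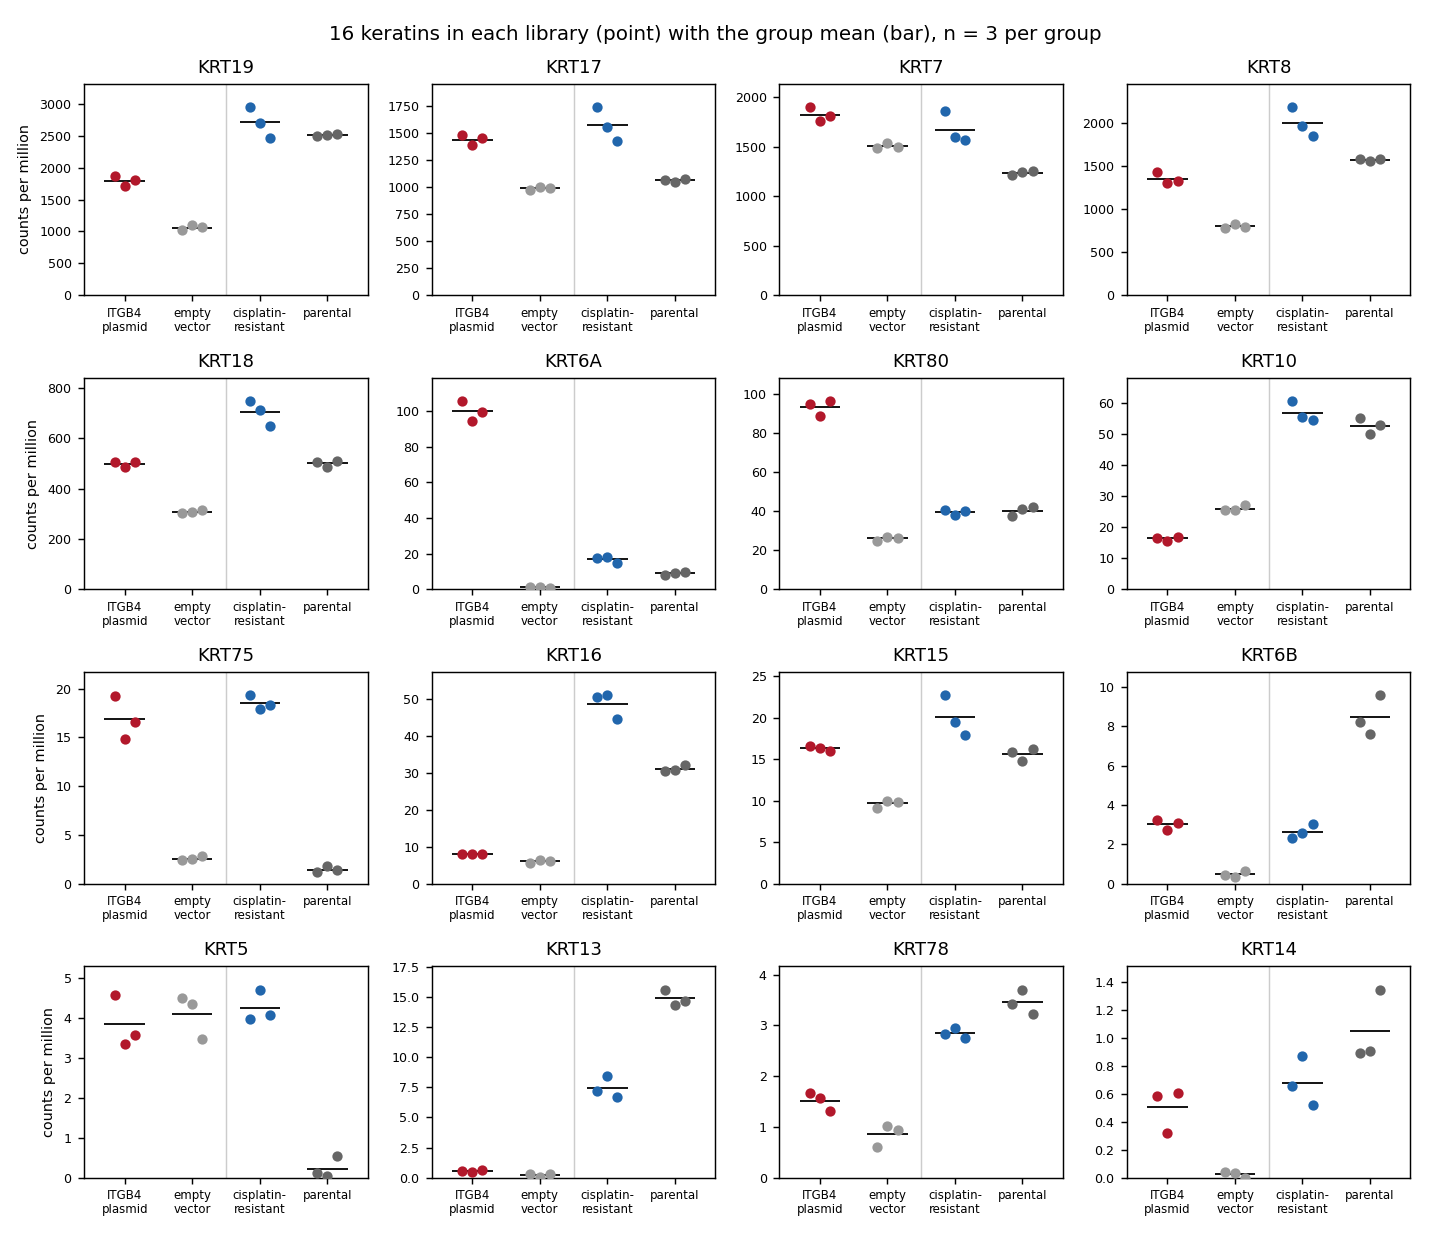
CPM (linear axes from 0) of the 16 keratins with a mean of at least 1 CPM in some group, 1 panel a gene; points are libraries, bars are means of 3. The plasmid libraries stand far above the vector libraries for KRT6A, KRT80 and KRT75, and the resistant libraries far above the parental ones for KRT75 and KRT5.

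Per length of annotated exons, the same few keratins led in every group. In RPKM, which divides CPM by exon length in kilobases, KRT19 stood first, at 769.5 ± 32.5 in plasmid cells and 453 ± 15.7 in vector cells, and at 1159 ± 102 in resistant cells and 1076 ± 7.43 in parental cells (SD, n = 3). KRT17 and KRT7 came next, and their order differed between groups. In plasmid cells KRT17 at 459 ± 15.6 and KRT7 at 446 ± 17.7 RPKM overlapped between libraries. In vector cells KRT7 at 369 RPKM was above KRT17 at 315. In resistant cells KRT17 at 502 ± 50.4 and KRT7 at 409 ± 39.5 RPKM overlapped, and in parental cells KRT17 at 339 RPKM was above KRT7 at 302. KRT8 and KRT18 followed at ranks 4 and 5 in all 4 groups. The exon length joins all annotated exons of a gene and can far exceed 1 transcript. It is 6881 bases for KRT8, 4093 for KRT7, 3130 for KRT17 and 2336 for KRT19. Their transcripts with the longest coding sequence have 1687, 1754, 1517 and 1390 bases. The ranks and shares rest on the exon lengths, and the order per transcript length was not tested. Rank 6 was held by KRT6A in plasmid cells, at 34.1 ± 1.85 RPKM, and by KRT10 in vector cells, at 12.1 ± 0.455 RPKM. KRT6A was at rank 12 in vector cells, at 0.433 ± 0.0688 RPKM. The 5 leading genes held 96.1 to 96.3% of the summed keratin RPKM in plasmid libraries, against 98.1 to 98.2% in vector libraries. They held 96.9 to 97.2% of it in resistant libraries, against 97.0 to 97.1% in parental libraries.

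In the overexpression experiment the keratins were mostly higher with the ITGB4 plasmid. Enough counts for the test were present for 18 of the 55 genes, of which 14 were higher, 2 lower and 2 not called at an adjusted p of 0.05 (edgeR quasi-likelihood test, Benjamini-Hochberg adjustment over all genes). Of all 16950 genes tested, 36.5% were called higher, 35.7% lower and 72.2% either way, so a call by itself was the common outcome in this experiment. The libraries of the groups did not overlap for 16 of the 18 keratins. Over all genes this share was not counted, so a lack of overlap by itself does not set the keratins apart. The median log2 fold change of the 18 keratins was 0.75, beside 0.0017 over all genes. For 13 of the 18, every library had enough counts. The 5 others (KRT2, KRT6B, KRT13, KRT81 and KRT86) had too few in at least 1 library. A gene could be tested through the counts of 1 group, which favours genes that differ. KRT86 was tested through libraries of both groups. Without them 11 were higher, 1 lower and 1 not called. In bulk RNA a change in the number of cells of a kind and a change in the RNA of each cell cannot be told apart.

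The simple epithelial keratins rose together with the plasmid, all 4 of the tested ones by 1.21- to 1.70-fold. KRT8, the type II chain of simple epithelia, had 1427, 1303 and 1327 CPM in plasmid libraries, against 785, 834 and 794 CPM in vector libraries (log2 0.75 ± 0.032 SE, edgeR adjusted p = 1.56e-12). Its partner KRT18 had 508, 486 and 506 CPM with the plasmid, against 304, 306 and 314 CPM with the vector (log2 0.70 ± 0.026 SE, edgeR adjusted p = 2.67e-13). KRT8 and KRT18 lie side by side on opposite strands, their annotated exons overlap by 525 bases, and reads were counted without regard to strand. KRT19, a type I chain with a short tail, had 1868, 1717 and 1807 CPM with the plasmid, against 1020.2, 1093 and 1063 CPM with the vector (log2 0.76 ± 0.031 SE, edgeR adjusted p = 6.52e-13). KRT7, the type II chain of ductal and urothelial cells, moved least of the 4, with 1902, 1758 and 1814 CPM in plasmid libraries, against 1486, 1542 and 1499 CPM in vector libraries (log2 0.27 ± 0.027 SE, edgeR adjusted p = 9.16e-08). The groups did not overlap for any of these genes.

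Among the keratins of wounded epithelium the change was large for the KRT6 pair and small for their type I partners. KRT6A had 106, 94.7 and 99.5 CPM in plasmid libraries, against 1.41, 1.36 and 1.04 CPM in vector libraries, from 2352, 2350 and 3118 counts against 37, 39 and 35 (79.6-fold, log2 6.31 ± 0.080 SE, edgeR adjusted p = 2.55e-19). The plasmid libraries were all far above the vector libraries. That was the largest increase of any keratin tested here. KRT6B, its near copy, had 3.23, 2.70 and 3.10 CPM with the plasmid, against 0.418, 0.348 and 0.621 CPM with the vector (6.33-fold, log2 2.66 ± 0.20 SE, edgeR adjusted p = 2.96e-09). KRT16 and KRT17, type I chains known to pair with KRT6 in activated keratinocytes, rose far less. KRT16 had 8.12, 8.10 and 8.01 CPM with the plasmid, against 5.48, 6.30 and 6.18 CPM with the vector (log2 0.43 ± 0.086 SE, edgeR adjusted p = 0.000283). KRT17, which is the abundant one of the pair in these cells, had 1478, 1383 and 1448 CPM in plasmid libraries, against 972, 999 and 985 CPM in vector libraries (log2 0.54 ± 0.026 SE, edgeR adjusted p = 5.67e-12). The groups did not overlap for these 4 genes. With the counts of KRT6A, KRT6B and KRT6C added up, which does not depend on how their reads were split, the sum was 57.4-fold higher with the plasmid (log2 5.84 ± 0.072 SE, edgeR adjusted p = 2.09e-19). The sum of KRT14, KRT16 and KRT17 was 1.46-fold higher (log2 0.54 ± 0.026 SE, adjusted p = 5.71e-12). That sum was nearly all KRT17, with 112610 counts in the plasmid libraries together, beside 633 for KRT16 and 40 for KRT14. It therefore repeats the value of KRT17 and cannot show how reads of KRT16 or KRT14 were split.

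The basal keratins did not move as a set. KRT5, the type II chain of basal cells, had 4.58, 3.35 and 3.57 CPM in plasmid libraries, against 4.49, 4.35 and 3.46 CPM in vector libraries, and the libraries of the groups overlapped (log2 -0.099 ± 0.14 SE, edgeR adjusted p = 0.528). KRT15, a type I basal chain, had 16.6, 16.3 and 16.02 CPM with the plasmid, against 9.09, 9.99 and 9.88 CPM with the vector (log2 0.75 ± 0.066 SE, edgeR adjusted p = 2.15e-08). Every plasmid library was above every vector library for KRT15. KRT14, the usual partner of KRT5, was below the filter and not tested. It had 13, 8 and 19 counts in plasmid libraries, against 1, 1 and 0 in vector libraries. That is 40 against 2 in all, a ratio of 22.7 with an exact 95% interval of 5.87 to 193.5 that covers counting error only.

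Of the keratins of differentiated layers, KRT80, a type II chain of many stratified epithelia, rose with 94.99, 88.8 and 96.3 CPM in plasmid libraries, against 24.99, 26.9 and 26.4 CPM in vector libraries (3.57-fold, log2 1.84 ± 0.042 SE, edgeR adjusted p = 4.35e-16). KRT10, the type I chain of suprabasal epidermis, fell, with 16.7, 15.7 and 16.9 CPM in plasmid libraries, against 25.5, 25.5 and 27.2 CPM in vector libraries (log2 -0.66 ± 0.053 SE, edgeR adjusted p = 7.38e-09). It was one of the 2 keratins lower with the plasmid. The other was KRT2, an epidermal type II chain, with 5, 11 and 10 counts with the plasmid, against 28, 32 and 27 with the vector (log2 -1.55 ± 0.28 SE, edgeR adjusted p = 0.000119). KRT78 rose on low counts, with 1.66, 1.57 and 1.31 CPM in plasmid libraries, against 0.609, 1.01 and 0.947 CPM in vector libraries (log2 0.79 ± 0.21 SE, edgeR adjusted p = 0.00283). The libraries of the groups did not overlap for any of these 4 genes. KRT13, the type I chain of mucosal and urothelial layers, was scarce in these cells. It had 13, 11 and 20 counts in plasmid libraries, against 7, 2 and 10 in vector libraries. This is 0.583, 0.443 and 0.638 CPM with the plasmid, against 0.266, 0.0696 and 0.296 CPM with the vector (log2 1.37 ± 0.40 SE, edgeR adjusted p = 0.00533). The plasmid library with the fewest KRT13 counts had 11, and the vector library with the most had 10.

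Outside these classes, KRT75, a type II chain known from the companion layer of the hair follicle, had 19.2, 14.8 and 16.6 CPM in plasmid libraries, against 2.40, 2.47 and 2.81 CPM in vector libraries (6.52-fold, log2 2.71 ± 0.11 SE, edgeR adjusted p = 8.38e-13). All plasmid libraries were above all vector libraries. The hair shaft keratin KRT81 was close to absent in vector libraries and rose. It had 18, 18 and 36 counts in plasmid libraries, against 2, 3 and 0 in vector libraries. The sums give a ratio of 16.3 with an exact 95% interval of 6.68 to 51.8 that covers counting error only (edgeR adjusted p = 1.82e-06). Its near copy KRT86, which shares 27.0% of its 100-base windows with KRT81, was not called. It had 10, 9 and 18 counts with the plasmid, against 5, 7 and 15 with the vector, and the groups overlapped (log2 0.63 ± 0.37 SE, edgeR adjusted p = 0.136).

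**Figure D2:**
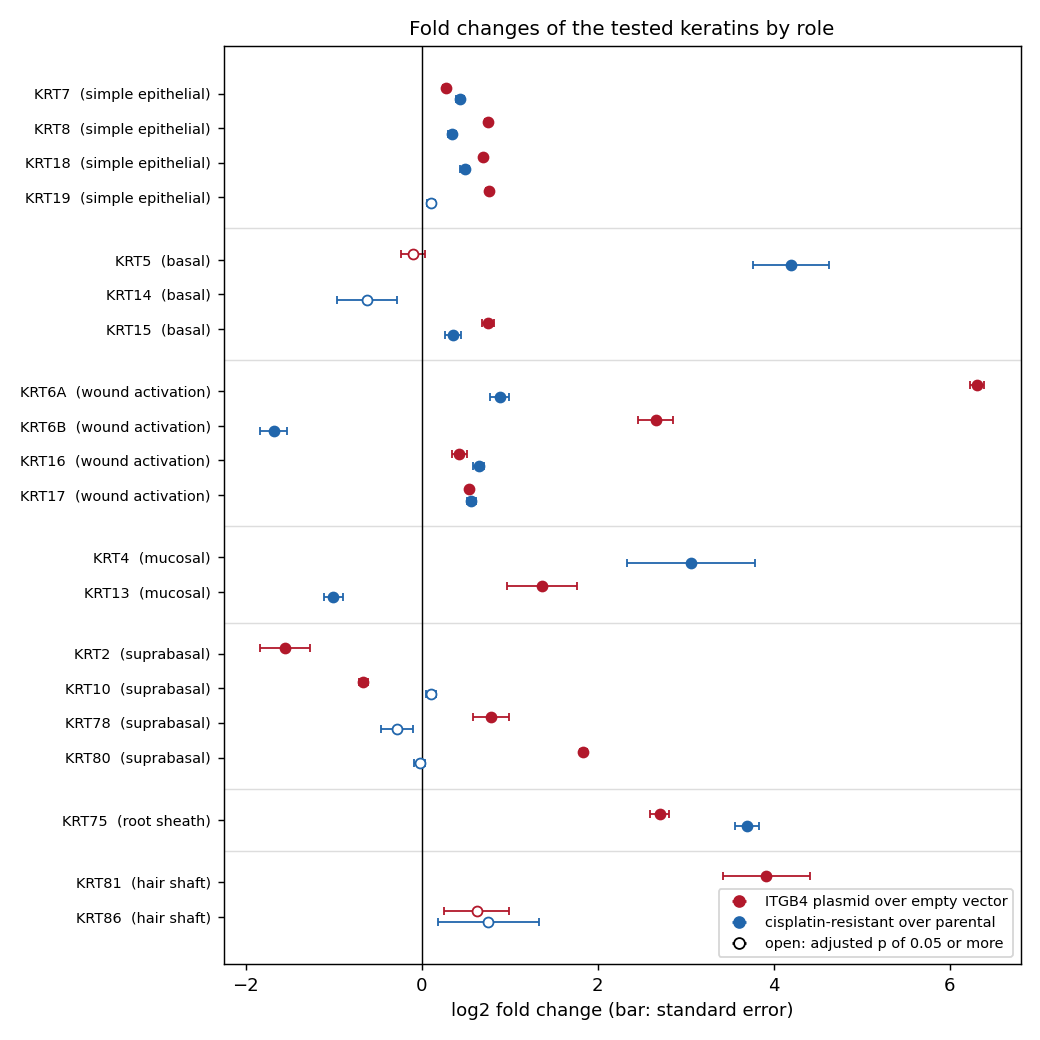
Log2 fold changes (points) with standard errors (bars) of the keratins tested in either experiment, grouped by role; open points have an adjusted p of 0.05 or more. KRT6A at 6.31 in the overexpression experiment and KRT5 at 4.20 in the resistance experiment lie farthest to the right, and KRT6B and KRT13 have called changes of opposite sign.

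In the resistance experiment fewer keratins were called. Of the 55 genes, 18 had enough counts, of which 10 were higher, 2 lower and 6 not called in resistant cells. Over all 16875 genes tested, 26.8% were called higher, 27.7% lower and 54.5% either way. Resistant and parental libraries did not overlap for 14 of the 18 keratins, a share that was not counted over all genes here either. The median log2 fold change of the 18 keratins was 0.40, beside 0.018 over all genes. Every library had enough counts for 15 of them, with 8 higher, 2 lower and 5 not called. KRT4, KRT5 and KRT86 had enough in the resistant libraries and too few in at least 1 parental library. Testing through the counts of 1 group favours genes that differ here as well. With scaling by library totals alone, the median over all genes moved to 0.18 and the split over all genes became 6548 higher and 3111 lower, against 4520 and 4679 with the main scaling, and KRT10 and KRT19 were called higher as well, at a log2 of 0.27 each.

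The simple epithelial keratins of resistant cells were higher by at most 1.40-fold. KRT18 had 748, 714 and 648 CPM in resistant libraries, against 507, 488 and 510.0 CPM in parental libraries (log2 0.49 ± 0.046 SE, edgeR adjusted p = 8.48e-08). KRT7 had 1861, 1599 and 1566 CPM in resistant libraries, against 1216, 1242 and 1255 CPM in parental libraries (log2 0.44 ± 0.049 SE, edgeR adjusted p = 8.44e-07). KRT8 had 2186, 1972 and 1849 CPM in resistant libraries, against 1587, 1557 and 1584 CPM in parental libraries (log2 0.35 ± 0.045 SE, edgeR adjusted p = 5.03e-06). In all 3 genes resistant library 1 was the highest, and resistant and parental libraries did not overlap. KRT19, the most abundant keratin of these cells, had 2947, 2705 and 2471 CPM in resistant libraries, against 2497, 2511 and 2532 CPM in parental libraries, and the groups overlapped (log2 0.11 ± 0.045 SE, edgeR adjusted p = 0.0550). Without resistant library 3, KRT19 was called higher, at a log2 of 0.17 and an edgeR adjusted p of 0.000184. It was also called with library totals alone, with either other filter on low counts and in a fit of all 12 libraries.

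KRT5 rose in resistant cells and was close to absent in the parental ones. It had 133, 179 and 157 counts in resistant libraries, against 4, 1 and 19 in parental libraries, which is 3.98, 4.70 and 4.07 CPM against 0.111, 0.0301 and 0.533 CPM (log2 4.20 ± 0.43 SE, edgeR adjusted p = 2.70e-07). The sums of 469 and 24 counts give a ratio of 18.6 with an exact 95% interval of 12.3 to 29.3 that covers counting error only. Leaving out 1 library gave a log2 fold change of 3.71 to 5.81. Parental library c held 19 of the 24 parental counts. KRT15 had 22.7, 19.5 and 17.9 CPM in resistant libraries, against 15.8, 14.8 and 16.3 CPM in parental libraries (log2 0.36 ± 0.094 SE, edgeR adjusted p = 0.00370). KRT14 was not called, with 0.658, 0.867 and 0.518 CPM in resistant libraries, against 0.890, 0.904 and 1.35 CPM in parental libraries (log2 -0.62 ± 0.34 SE, edgeR adjusted p = 0.141). The groups did not overlap for KRT5, KRT15 or KRT14.

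The KRT6 pair moved in opposite directions in resistant cells. KRT6A had 17.7, 17.9 and 14.7 CPM in resistant libraries, against 8.26, 9.13 and 9.79 CPM in parental libraries (log2 0.89 ± 0.11 SE, edgeR adjusted p = 1.52e-06). KRT6B had 2.33, 2.55 and 3.03 CPM in resistant libraries, against 8.24, 7.59 and 9.57 CPM in parental libraries (log2 -1.68 ± 0.15 SE, edgeR adjusted p = 5.94e-08). The groups did not overlap for either gene. The sum of KRT6A, KRT6B and KRT6C was 1.10-fold higher and not called (log2 0.14 ± 0.090 SE, edgeR adjusted p = 0.197). KRT16 had 50.5, 51.03 and 44.6 CPM in resistant libraries, against 30.5, 30.7 and 32.03 CPM in parental libraries (log2 0.65 ± 0.067 SE, edgeR adjusted p = 2.65e-07). KRT17 had 1736, 1553 and 1422 CPM in resistant libraries, against 1062, 1045 and 1076 CPM in parental libraries (log2 0.57 ± 0.051 SE, edgeR adjusted p = 5.41e-08). These type I partners were higher in every resistant library than in any parental library.

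KRT13 fell in resistant cells, with 7.17, 8.43 and 6.68 CPM in resistant libraries, against 15.6, 14.4 and 14.7 CPM in parental libraries (log2 -1.004 ± 0.11 SE, edgeR adjusted p = 4.03e-07). KRT4, the type II chain that pairs with KRT13 in mucosal epithelium, was higher. It had 13, 19 and 15 counts in resistant libraries, against 0, 2 and 3 in parental libraries (edgeR adjusted p = 0.00172). The summed counts give a ratio of 8.94 with an exact 95% interval of 3.57 to 28.8 that covers counting error only. KRT75 was again higher, with 19.3, 17.9 and 18.3 CPM in resistant libraries, against 1.14, 1.75 and 1.40 CPM in parental libraries (12.9-fold, log2 3.69 ± 0.14 SE, edgeR adjusted p = 4.48e-13). It was the largest called increase among the keratins with enough counts in every library. The groups did not overlap for these 3 genes. The suprabasal genes were not called. KRT10 had 60.7, 55.7 and 54.5 CPM in resistant libraries, against 55.2, 50.2 and 52.96 CPM in parental libraries (log2 0.11 ± 0.060 SE, edgeR adjusted p = 0.137). KRT80 had 40.5, 38.2 and 40.3 CPM in resistant libraries, against 37.5, 41.3 and 42.1 CPM in parental libraries (log2 -0.022 ± 0.064 SE, edgeR adjusted p = 0.796). The groups overlapped for KRT10 and KRT80, and the sign of KRT80 depended on the scaling. KRT78 had 2.84, 2.94 and 2.74 CPM in resistant libraries, against 3.42, 3.71 and 3.23 CPM in parental libraries (log2 -0.28 ± 0.18 SE, edgeR adjusted p = 0.197). KRT86 had 9, 12 and 13 counts in resistant libraries, against 10, 3 and 6 in parental libraries (log2 0.76 ± 0.57 SE, edgeR adjusted p = 0.282).

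**Figure D3:**
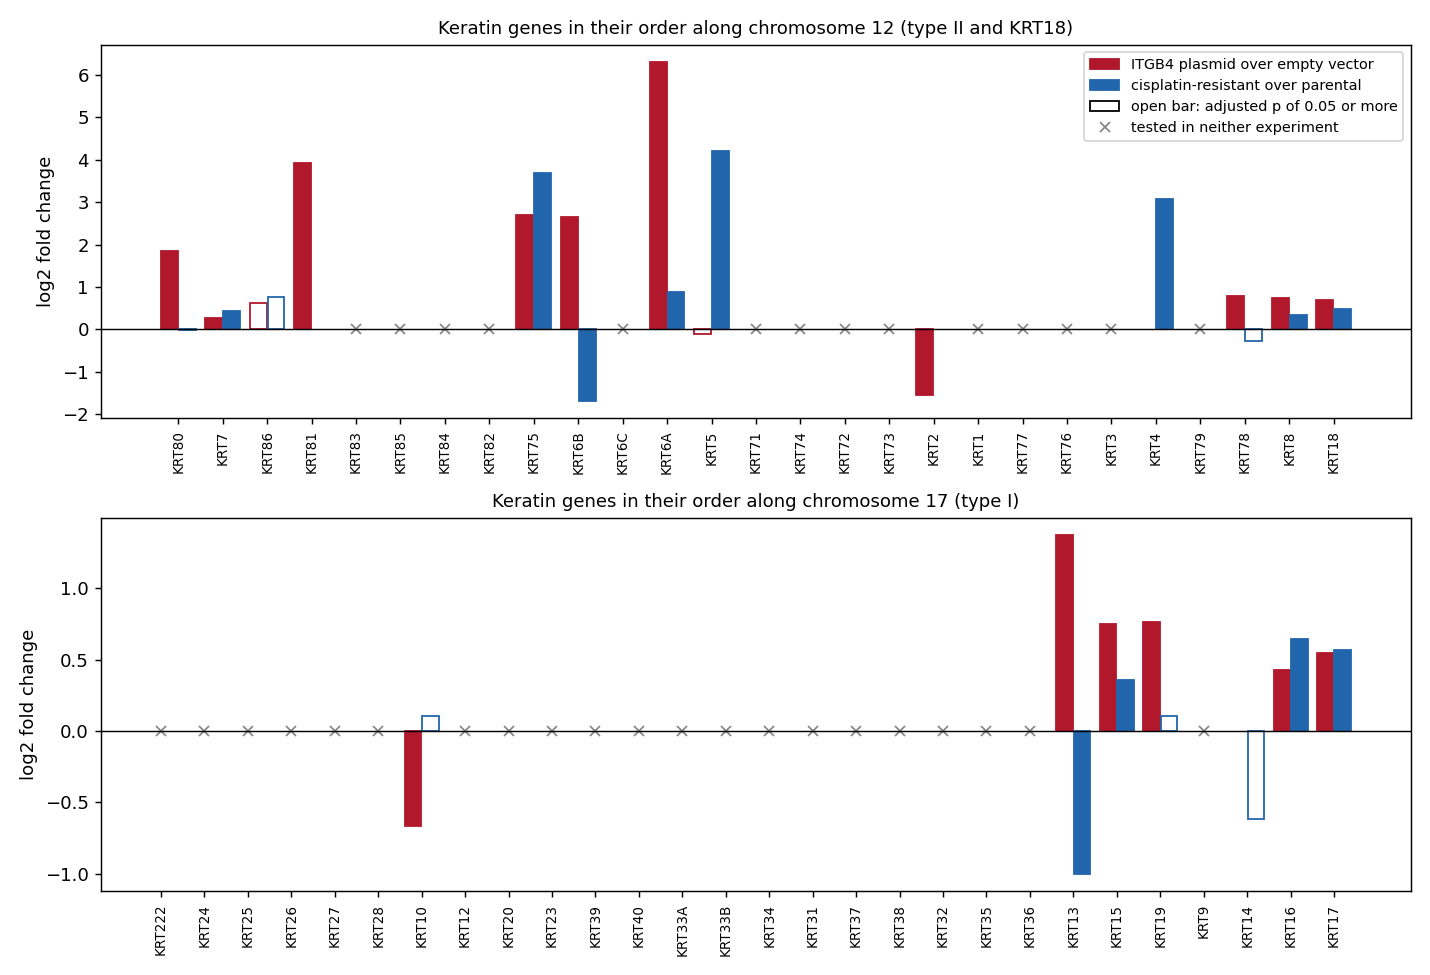
Log2 fold changes of the keratins in their order along chromosomes 12 and 17 (spacing is not to scale); open bars have an adjusted p of 0.05 or more and crosses mark genes tested in neither experiment. Within the neighbours KRT75, KRT6B, KRT6C, KRT6A and KRT5, the overexpression bars are high for KRT75, KRT6B and KRT6A and near 0 for KRT5, and the resistance bars are high for KRT75 and KRT5 and below 0 for KRT6B.

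Put side by side, 8 keratins were called higher in both experiments: KRT6A, KRT7, KRT8, KRT15, KRT16, KRT17, KRT18 and KRT75. They are 8 of the 14 called higher with the plasmid and 8 of the 10 called higher in resistant cells. Of the 16 keratins tested in both experiments, 8 were thus higher in both, beside 7.11% of all 15655 genes tested in both. KRT6B and KRT13 were called higher with the plasmid and lower in resistant cells, a pair of calls that 16.6% of those 15655 genes had. The difference between the fold changes was tested in a fit of all 12 libraries. Of the 18516 genes in it, 30.2% had a fold change called higher in the overexpression experiment, 31.6% lower and 61.8% either way. Of 20 keratins in that fit, 10 had a higher fold change in the overexpression experiment, 4 a lower one and 6 were not called. The difference was largest for KRT6A, at a log2 of 5.40 ± 0.15 (SE, edgeR adjusted p = 4.69e-17). KRT14 followed at 4.86 ± 0.75 (SE, edgeR adjusted p = 1.05e-05), a value that rests on 2 counts in the vector libraries together. KRT6B stood at 4.32 ± 0.26 (SE, edgeR adjusted p = 1.06e-11) and KRT13 at 2.35 ± 0.38 (SE, edgeR adjusted p = 1.88e-05). KRT80 differed by 1.84 ± 0.076 (SE, edgeR adjusted p = 2.13e-14) and KRT78 by 1.05 ± 0.27 (SE, edgeR adjusted p = 0.00198). On the other side, the fold change of KRT5 was lower in the overexpression experiment, at a log2 difference of -4.32 ± 0.45 (SE, edgeR adjusted p = 4.47e-08). So were those of KRT75, at -1.01 ± 0.19 (SE, edgeR adjusted p = 0.000136), and KRT10, at -0.79 ± 0.083 (SE, edgeR adjusted p = 4.80e-08). The last of the 4 was KRT7, at -0.19 ± 0.066 (SE, edgeR adjusted p = 0.0195), whose call was lost when any 1 of 6 libraries was left out. For KRT16 and KRT17 the difference was not called, at a log2 of -0.24 ± 0.11 (SE, edgeR adjusted p = 0.0563) and -0.046 ± 0.068 (SE, edgeR adjusted p = 0.582).

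The keratins together took a larger share of all counts in the plasmid cells and in the resistant cells than in their controls. They held 0.682 to 0.732% of counts in plasmid libraries, against 0.472 to 0.489% in vector libraries, a summed 7174 ± 282 CPM with the plasmid and 4745 ± 106 CPM with the vector (SD, n = 3 each). In the resistance experiment they held 0.869 to 1.02% of counts in resistant libraries, against 0.663 to 0.674% in parental libraries, or 8879 ± 778 CPM in resistant cells and 7069 ± 64.5 CPM in parental cells (SD, n = 3 each). In both experiments the groups did not overlap, and the exact two-sided permutation p was 0.1, the smallest that 3 libraries against 3 allow. The balance of the 2 families differed in opposite directions. The ratio of summed type I to summed type II RPKM was 1.95 to 2.00 in plasmid libraries, against 1.76 to 1.80 in vector libraries. It was 2.60 to 2.74 in resistant libraries, against 2.93 to 2.96 in parental libraries, again with an exact permutation p of 0.1 in each. These ratios and the type II shares rest on the lengths of all annotated exons, and transcript lengths were not tried. Within the type II sum, KRT6A held 4.75 to 4.86% in plasmid libraries, against 0.0720 to 0.0987% in vector libraries. KRT7 held 62.6 to 63.0% of it in plasmid libraries, against 74.2 to 74.6% in vector libraries.

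Which of the near copies KRT6A and KRT6B was read differed between groups as well. KRT6A made up 97.0 to 97.2% of the counts of the pair in plasmid libraries, against 62.5 to 79.6% in vector libraries, where each share rests on 48 to 56 counts. The lowest bound of the exact 95% intervals in plasmid libraries was 96.3%, and the highest in vector libraries was 89.8%. In resistant libraries the share was 82.9 to 88.4%, against 50.1 to 54.6% in parental libraries, with no overlap of the intervals, which end at 79.9% and 58.8% on the facing sides. Intervals cover counting error only.

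**Figure D4:**
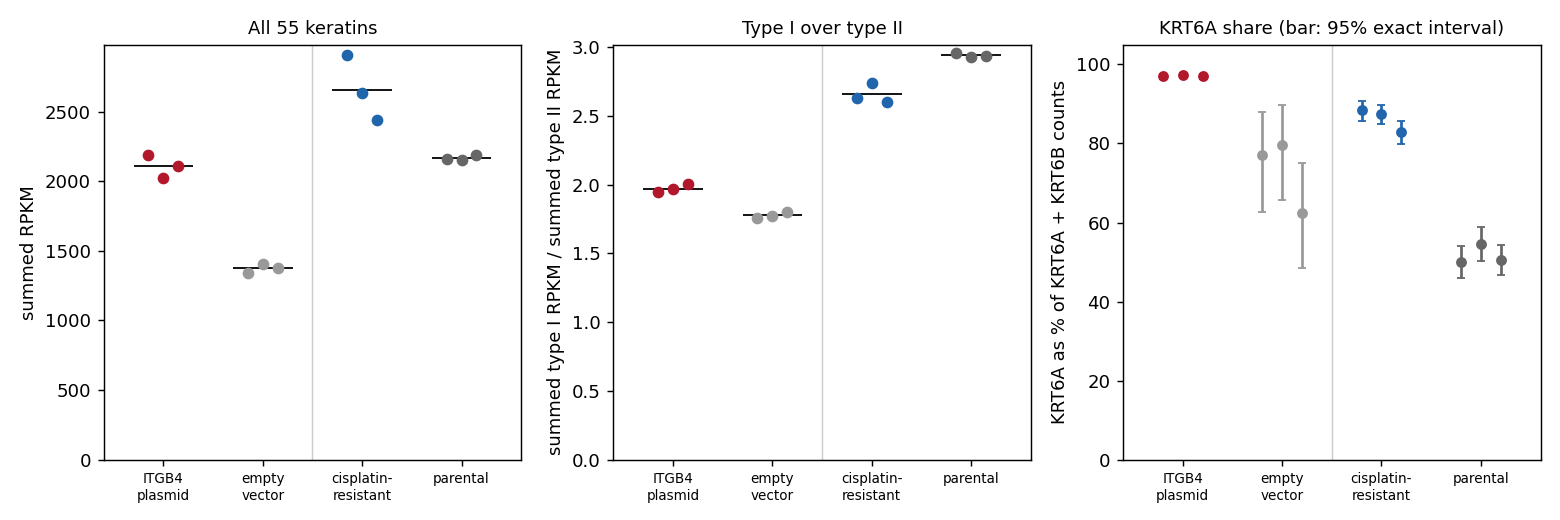
Left, summed RPKM of the 55 keratins; middle, the ratio of summed type I to summed type II RPKM; right, KRT6A as a percentage of KRT6A plus KRT6B counts with exact 95% intervals; points are libraries and horizontal bars are means of 3. The ratio of type I to type II is higher in plasmid than in vector libraries and lower in resistant than in parental libraries, while the KRT6A share is higher in plasmid and in resistant libraries than in their controls.

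The genes of proteins that hold keratin filaments at junctions were read from the same fits, in which 36.5% of all genes were called higher and 35.7% lower with the plasmid, and 26.8% higher and 27.7% lower in resistant cells. Of 12 such genes, 8 were higher and 4 lower with the plasmid, with a median log2 fold change of 0.56, beside 0.0017 over all genes. In resistant cells 1 was higher, 7 were lower and 4 were not called, with a median of -0.20, beside 0.018 over all genes. PPL, the desmosomal linker periplakin, had 148.4 ± 7.18 CPM in plasmid cells and 64.8 ± 0.213 CPM in vector cells (log2 1.19 ± 0.036 SE, edgeR adjusted p = 1.24e-14). PKP3, a desmosomal plakophilin, rose as well (log2 0.84 ± 0.038 SE, adjusted p = 3.94e-12). DST, the gene of the hemidesmosomal plakin BPAG1, fell, with 569.6 ± 1.10 CPM in plasmid cells and 936 ± 7.36 CPM in vector cells (log2 -0.72 ± 0.022 SE, adjusted p = 1.63e-14). It was the one called higher in resistant cells (log2 0.25 ± 0.053 SE, adjusted p = 0.000687). The smallest p-values in resistant cells were those of TCHP, a keratin-binding protein (log2 -0.63 ± 0.056 SE, edgeR adjusted p = 3.96e-08), PKP2 (log2 -0.59 ± 0.065 SE, adjusted p = 6.22e-07) and PLEC, the plectin gene (log2 -0.31 ± 0.041 SE, adjusted p = 4.14e-06). Plectin was higher with the plasmid, at 1571 ± 62.1 CPM in plasmid cells and 1054 ± 12.3 CPM in vector cells.

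Of the other intermediate filament genes, 5 of 13 were tested in each experiment, with 4 higher and 1 lower with the plasmid and 2 higher and 2 lower in resistant cells; over all genes, 72.2% were called either way with the plasmid and 54.5% in resistant cells. The remaining called genes were the lamins LMNB1 and LMNA with the plasmid and LMNA in resistant cells, all higher. With the plasmid the smallest p-values belonged to NEFL, the light neurofilament chain (log2 -1.51 ± 0.19 SE, edgeR adjusted p = 1.67e-06), SYNM, synemin (log2 0.34 ± 0.047 SE, adjusted p = 5.29e-06), and LMNB2, a nuclear lamin (log2 0.18 ± 0.029 SE, adjusted p = 3.68e-05). In resistant cells they belonged to LMNB1 (log2 -0.80 ± 0.050 SE, edgeR adjusted p = 4.17e-10), NEFL, which was higher there (log2 2.85 ± 0.26 SE, adjusted p = 6.89e-08), and SYNM (log2 -0.50 ± 0.12 SE, adjusted p = 0.00155).

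Transcription factors of epithelial fate were tested in full. Of 14, 7 were higher and 6 lower with the plasmid (36.5% and 35.7% of all genes), with a median log2 fold change of 0.10. In resistant cells 1 was higher and 13 were lower (26.8% and 27.7% of all genes), with a median of -0.38. KLF4, a factor of epithelial differentiation, had 176.8 ± 2.30 CPM in plasmid cells and 67.4 ± 0.829 CPM in vector cells (log2 1.39 ± 0.029 SE, edgeR adjusted p = 1.10e-16). GRHL1, a grainyhead factor, rose (log2 1.07 ± 0.027 SE, adjusted p = 1.75e-15), and ZNF750, a factor of terminal epidermal differentiation, fell (log2 -1.65 ± 0.042 SE, adjusted p = 1.69e-15). In resistant cells FOXA1, a factor of the luminal urothelium, had 232.7 ± 4.96 CPM, against 406.7 ± 5.79 CPM in parental cells (log2 -0.81 ± 0.038 SE, edgeR adjusted p = 8.63e-12). ZNF750 (log2 -1.17 ± 0.072 SE, adjusted p = 3.21e-10) and OVOL1 (log2 -0.95 ± 0.060 SE, adjusted p = 4.25e-10) fell too. The one called higher there was OVOL2, an epithelial repressor named after its value was seen (log2 0.48 ± 0.16 SE, adjusted p = 0.0196), and it was not called without parental library a, parental library c or resistant library 1. These lists were read as counts only, and no test of a list was made.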

How the data were processed

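Libraries were made from total RNA with a strand-marking kit, per the labels' protocols. The deposited values are raw counts per gene in 2 tables. In the overexpression table read pairs over exons were counted by the authors with featureCounts 2.0.1 against Ensembl 107 (GRCh38), from alignments whose names hold "hisat", per the file headers, with no strand option and without multiply mapped reads, so a gene and an overlapping antisense gene cannot be told apart. The submitters' processing notes name hg38 for the resistance table. Its aligner, counter and annotation were not given in the sources used here.

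Symbols were matched for 61757 of 61860 and 62700 of 62700 identifiers. Genes passing filterByExpr (minimum count 10) were tested in edgeR 4.0.16 (R 4.3.3) (TMM scaling, quasi-likelihood test), adjusted over all genes (Benjamini-Hochberg), and called at 0.05; the difference used 4 group means over 12 libraries. Each experiment was scaled apart, so levels set across tables were not tested. CPM use TMM-scaled totals. RPKM use exon lengths of GENCODE 29, because the overexpression table holds no length column as had been planned. No protein table was at hand, and coding sequences of GENCODE 29 were compared in place of proteins (Biopython 1.88). Named genes are KRT5, KRT6A, KRT13, KRT20, KRT75, keratins with a mean of at least 1 CPM in a group, and of each related list up to 3 called genes with the smallest p; KRT2, KRT4, KRT81, KRT86, KRT6C, LMNA and OVOL2 were named after their values were seen. Members and lists were chosen with earlier results of these data known. Counts of replicates differed beyond sampling noise in every pair (chi-square per degree of freedom 1.66 to 19.1). Same-numbered plasmid and vector libraries did not deviate together, and the main test left them unpaired. Such correlations cannot show whether the libraries were prepared in pairs. The procedure was tested on simulated data in which far fewer genes changed than were called here. Its scaling and error rates under changes as broad as these were therefore not tested. Alternatives were DESeq2 1.42.0, limma-voom (limma 3.58.1), other scalings and filters, a 1.5-fold threshold, summed relatives, a replicate block and leaving out each library.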

Additional observations from a re-analysis of the deposited data

Results flagged for a closer look

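For 14 keratins the fold change differed between the experiments in the fit of all 12 libraries (edgeR adjusted p under 0.05). On the log2 scale, overexpression minus resistance, the difference was 5.40 for KRT6A, 4.86 for KRT14, 4.32 for KRT6B, 2.35 for KRT13, 1.84 for KRT80, 1.05 for KRT78, 0.63 for KRT19, 0.38 for KRT8, 0.37 for KRT15 and 0.19 for KRT18. It was -0.19 for KRT7, -0.79 for KRT10, -1.01 for KRT75 and -4.32 for KRT5. The value of KRT14 rests on 2 counts in the vector libraries together. KRT7 was no longer called when any of plasmid library 2, plasmid library 3, vector library 2, parental library a, parental library b or resistant library 1 was left out, with adjusted p of 0.0521 to 0.0875.

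Signal also appeared in keratin pseudogenes, which the rule for members leaves out and which were looked at after the keratin sums had been seen. In the overexpression experiment 15 of 150 named keratin pseudogenes were tested, with 8 higher and 4 lower with the plasmid. Over all genes tested, 36.5% were called higher, 35.7% lower and 72.2% either way, so a call by itself was common. KRT16P6 had 1044, 1117 and 1441 counts in plasmid libraries, against 1, 2 and 0 in vector libraries (log2 10.23 ± 0.15 SE, adjusted p = 1.38e-18, count ratio 1360 with an exact 95% interval of 465 to 6598). That interval covers counting error only. KRT16P2 had 1406, 1441 and 1836 counts, against 19, 28 and 44 (log2 5.86 ± 0.093 SE, adjusted p = 3.61e-18), and KRT16P1 had 159, 157 and 195, against 3, 1 and 7 (log2 5.67 ± 0.23 SE, adjusted p = 9.08e-13). KRT16P3 had a log2 fold change of 6.31 and KRT17P4 one of 3.24. Of these 5 pseudogenes, which are among the 8 called higher, all but KRT16P2 had at most 7 counts in a vector library. Those were tested through the counts of the plasmid libraries alone, which favours genes that differ. All 5 lie on chromosome 17, between 16817983 and 20512357 in GENCODE 29, apart from the type I cluster, and KRT16 itself rose by a log2 of 0.43. In the resistance table KRT16P2 had 371, 393 and 374 counts in resistant libraries, against 417, 364 and 434 in parental libraries, and the identifiers of the 4 others had 0 counts in all 6 libraries (KRT16P3 carries another identifier there, with 35 counts in resistant libraries together, against 45 in parental libraries), in a table whose annotation is not given in the sources used here. KRT16 and its pseudogenes share sequence, 13.0% of the 50-base windows of KRT16 occurring in KRT16P3, and the part of shared reads in these values was not tested.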

How the results depend on the processing

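The counts of higher keratins were 14 in the overexpression and 10 in the resistance experiment under DESeq2, limma-voom and DESeq2 size factors; leaving out 1 library gave 14 to 16 and 10 to 11, with 2 lower in each. Asking for a change over 1.5-fold lowered most counts, by its construction. It left 10 higher and 1 lower keratin with the plasmid, where the counts without it were 14 and 2. In resistant cells 4 were higher, and in the difference 6 had a higher fold change, where both counts without it were 10. Of the keratins called higher in both experiments, KRT7, KRT8, KRT15, KRT16, KRT17 and KRT18 were then not called in resistant cells. Over all genes that threshold left 1880 higher and 1938 lower with the plasmid, 1042 and 1065 in resistant cells, and 2769 and 2966 in the difference. The filter at 1 CPM removed KRT2, leaving 1 lower keratin with the plasmid, and summing close relatives left 1 lower keratin in resistant cells, since KRT6B was no longer counted apart. With library totals alone, 3111 genes were lower in resistant cells (4679 with the main scaling), and the parental keratins summed to 6673 CPM (7069 with the main scaling).

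KRT80 in the resistance experiment changed sign with library totals alone (log2 0.14), without parental library c (0.0077) and without resistant library 2 (0.0068), never called; leaving out 1 library gave -0.075 to 0.0077. In the difference, leaving out 1 library gave -0.53 to 0.080 for KRT2 and -0.86 to 2.51 for KRT81, with the sign turned without parental library c, and -0.10 to 0.043 for KRT17, with the sign turned without resistant library 1, all uncalled. The cause was not tested. With library totals alone the difference was no longer called for KRT15 and KRT18 and was called for KRT16 and KRT17. Leaving out 1 library moved the count of keratins with a lower fold change in the difference between 3 and 5.

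Anchor genes over 1.5-fold were 5 higher and 1 lower with the plasmid and 0 and 0 in resistant cells, with 1 lower in the difference. With library totals alone 2 were higher and 4 lower in resistant cells, and 2 were higher with no filter. Leaving out 1 library gave 1 to 2 higher in resistant cells and 1 to 2 lower in the difference. Other filament genes over 1.5-fold were 0 higher with the plasmid and 1 higher and 1 lower in resistant cells, and 2 were lower in the difference with library totals alone. Fate regulators over 1.5-fold were 4 higher and 3 lower with the plasmid, 0 and 3 in resistant cells, and 6 and 1 in the difference; leaving out 1 library gave 0 to 1 higher in resistant cells.

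With the replicate block in the overexpression experiment, 14 keratins were higher and 2 lower, with 6105 and 5965 genes in all. Same-numbered plasmid and vector libraries did not deviate together (r of -0.049, -0.073 and -0.056), and no library correlated best with its own number. No paired analysis was possible for the resistance experiment and the difference because the parental columns carry no sample number. Depth limits what can be said of the 24 scarcest keratins with counts, and a p that misses the threshold does not show that levels were equal.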

Other observations

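The control cells of the experiments, which were grown in different media and counted in separate tables, differed in several keratins. KRT13 averaged 0.211 ± 0.123 CPM in vector cells and 14.9 ± 0.657 CPM in parental cells, KRT6B 0.463 ± 0.142 and 8.47 ± 1.01 CPM, KRT16 5.99 ± 0.445 and 31.1 ± 0.816 CPM, and KRT5 4.10 ± 0.556 and 0.225 ± 0.270 CPM (SD, n = 3 each). KRT6A and KRT14, which had more counts with the plasmid, averaged 1.27 ± 0.202 and 0.0243 ± 0.0211 CPM in vector cells. In parental cells they averaged 9.06 ± 0.765 and 1.05 ± 0.259 CPM (SD, n = 3 each). These levels were set across tables scaled apart and were not tested, and the medium and the experiment cannot be told apart. KRT5 averaged 4.25 ± 0.397 CPM in resistant cells and 3.83 ± 0.655 CPM in plasmid cells (SD, n = 3 each).

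The 5 uroplakins, proteins of the urothelial plaque, were looked at as a check of the cell type, after the keratin values had been seen, and were not tested as a group. UPK1B stood at 143.6 to 149.0 CPM in plasmid libraries, against 54.0 to 55.7 CPM in vector libraries, and at 26.7 to 29.7 CPM in resistant libraries, against 68.0 to 72.3 CPM in parental libraries. UPK2 stood at 3.19 to 3.54 CPM in plasmid libraries, against 6.09 to 6.81 CPM in vector libraries, and at 10.8 to 13.1 CPM in resistant libraries, against 6.15 to 8.50 CPM in parental libraries. UPK3A averaged 2.74 ± 0.390 CPM in plasmid cells and 3.69 ± 0.445 CPM in vector cells, and 4.79 ± 0.162 CPM in resistant cells and 1.57 ± 0.680 CPM in parental cells (SD, n = 3 each). UPK3B averaged 69.6 ± 5.18 CPM in plasmid cells and 56.7 ± 1.85 CPM in vector cells, and 50.8 ± 1.51 CPM in resistant cells and 76.1 ± 13.5 CPM in parental cells (SD, n = 3 each). UPK1A had at most 1 count in a plasmid library, against 6 in a vector library, and at most 18 in a resistant library, against 2 in a parental library.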
